A study of Mus musculus with 16 samples.

Results

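The genes described here control how pyruvate enters and is used in mitochondria: the 4 pyruvate dehydrogenase (PDH) kinases Pdk1, Pdk2, Pdk3 and Pdk4, the 2 pyruvate carrier genes Mpc1 and Mpc2, the PDH complex components Dlat and Pdhx, and the pyruvate carboxylase gene Pcx. They were chosen by name, and all 9 were found by Ensembl identifier among the 25006 genes listed for each mouse. Messenger RNA was collected by RiboTag, a pulldown of ribosomes that carry an epitope tag made only in cells with Cre recombinase, so that the mRNA bound to those ribosomes is sequenced. The samples were substantia nigra tissue from 8 mice of the genotype DAT-Cre +/-, called control, and 8 of the genotype DAT-Cre+/- MCU fl/fl, called MCU-KO, with 1 library per mouse, and the labels describe the cell type as dopaminergic neurons. MCU is the pore of the calcium channel in the inner mitochondrial membrane, and the comparison asked what its loss in these neurons does to gene expression.

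Mice of both genotypes carried 1 copy of DAT-Cre and received the same Cre-dependent viral RiboTag vector, Rpl22l1-Myc-DDK with tdTomato, by injection into the substantia nigra. The labels give the age as postnatal day 45 and collection 30 days after injection. Cre was driven by the dopamine transporter gene, so that both the tag and the deletion were limited to cells that use this gene. The floxed Mcu alleles were present in MCU-KO mice and not in the labelled control genotype.

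Pyruvate made by glycolysis crosses the inner mitochondrial membrane through a carrier built from Mpc1 and Mpc2. In the matrix the PDH complex turns it into acetyl-CoA for the tricarboxylic acid cycle, while pyruvate carboxylase turns it into oxaloacetate, a reaction known in brain mainly from astrocytes. The PDH kinases phosphorylate and switch off the PDH complex, and the opposing PDH phosphatases, of which Pdp1 encodes one that calcium stimulates, switch it on again.

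Library totals ranged from 18999107 to 22016362 counts in control mice and from 14129527 to 20582204 in MCU-KO mice, of which MCU-KO mouse 8 was the lowest. Normalized counts are counts divided by a size factor per library. Mcu had 454 ± 274 normalized counts in control mice (SD, n = 8) and 199.9 ± 139 in MCU-KO mice (SD, n = 8). Its log2 fold change was -1.19 ± 0.59 (SE), with a 95% interval from -2.41 to 0.038. The unadjusted p was 0.0569 and the adjusted p 1.00 (quasi-likelihood test of edgeR, Benjamini-Hochberg adjusted over all genes tested). The paper reports that a targeted PCR assay of Mcu on RiboTag RNA verified the deletion. It also reports a functional check by calcium imaging. Mitochondrial matrix calcium was lower at baseline in MCU-KO neurons and rose less after stimulation of glutamate receptors. The groups overlapped for Mcu: 3 MCU-KO mice were below every control mouse, MCU-KO mouse 2 at 410 was above the control median of 401, and control mice 1 and 8, at 132 and 120.3, were below the MCU-KO median of 246. The deposited counts are per gene and not per exon, so any transcript from a deleted allele would also be counted. Whether this bears on the overlap was not tested, and groups are used as labelled. The 12 dopaminergic markers, among them Th and Slc6a3, summed to 260668 to 337157 normalized counts in control mice and 226545 to 383962 in MCU-KO mice. The 10 astrocyte markers summed to 17727 to 30512 and 19357 to 33500, and the 8 oligodendrocyte markers to 57024 to 110757 and 68305 to 129942, so RNA of glial cells was present in both groups. Lower in MCU-KO mice were 7 of 12 dopaminergic, 2 of 10 astrocyte and 2 of 8 oligodendrocyte markers, beside 49.6% of all genes tested. Their median log2 fold changes were -0.032, 0.167 and 0.134. For microglia 2 of 8 markers were lower (median 0.40), for other neurons 2 of 5 (0.18) and for endothelial cells all 4 tested (-0.55). No gene of the marker lists had an adjusted edgeR p under 0.05 between the genotypes, which 0.178% of all genes tested did.

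Shared sequence bears on how Mpc1 was counted. Mpc1 (ENSMUSG00000023861) lies on mm10 chromosome 17, 8282904 to 8297661, plus strand. Of all stretches of 50 bases in its annotated transcripts, 26.3% also occur in transcripts of another gene, counted on either strand. The antisense gene 4930506C21Rik, on the opposite strand, shared 15.26%, the pseudogene Mpc1-ps 11.03% and Gm8219 0.7356%. Of these, only 4930506C21Rik is among the genes listed for each mouse. Bases 171 to 456 of the Mpc1 transcript with the coding sequence at bases 130 to 456 are identical in the pseudogene Mpc1-ps, and the run of 286 bases is shown because a read that lies within it has 2 possible sources.
Mpc1, transcript bases 171 to 456: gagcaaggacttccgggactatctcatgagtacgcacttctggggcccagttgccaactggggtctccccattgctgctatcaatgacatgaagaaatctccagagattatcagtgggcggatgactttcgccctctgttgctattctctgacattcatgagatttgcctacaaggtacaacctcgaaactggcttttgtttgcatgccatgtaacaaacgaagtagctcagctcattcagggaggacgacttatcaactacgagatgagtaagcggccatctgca
The antisense gene 4930506C21Rik covers 480 bases of Mpc1 exons on the opposite strand and had 0 to 229 counts per library. The strand setting of the counting is not given in the sources used here, so reads from Mpc1 and this antisense gene cannot be told apart over those bases. For the other 8 genes, the share of stretches of 50 bases that also occur in another gene was between 0% and 1.40%.

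The promoters of the PDH kinase genes with the highest and the lowest level, Pdk2 and Pdk4, are shown from RefSeq (GRCm38.p6, 250 bases before to 50 bases after the gene start, minus strand in both), with every CG in capitals.
Pdk2, chr11:95041322-95041621: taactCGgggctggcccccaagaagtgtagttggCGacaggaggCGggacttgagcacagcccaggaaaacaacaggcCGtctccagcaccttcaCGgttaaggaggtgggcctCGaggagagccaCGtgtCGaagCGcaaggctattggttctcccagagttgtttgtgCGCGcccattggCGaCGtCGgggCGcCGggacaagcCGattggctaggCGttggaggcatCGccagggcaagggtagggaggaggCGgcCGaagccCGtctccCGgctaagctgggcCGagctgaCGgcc
Pdk4, chr6:5496229-5496528: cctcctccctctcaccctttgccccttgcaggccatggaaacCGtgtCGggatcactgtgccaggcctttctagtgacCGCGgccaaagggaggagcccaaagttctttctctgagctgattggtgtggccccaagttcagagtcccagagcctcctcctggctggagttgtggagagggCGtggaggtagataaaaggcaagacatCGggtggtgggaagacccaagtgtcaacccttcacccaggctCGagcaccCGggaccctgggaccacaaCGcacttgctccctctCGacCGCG
The Pdk2 promoter held 25 CG and the Pdk4 promoter 12, beside a median of 7 over 32851 RefSeq promoters of the same length. Pdk1 held 25 CG in this window and Pdk3 held 35. For Pdk1 and for Pdk2, 2 promoters are listed. The window nearest the start of the principal transcript in GENCODE was taken, and the other is not described here. The letters ACGTG, a form of the core of the motif of hypoxia-inducible factors, were searched on both strands, and 19.6% of all promoters held at least 1 match. They occurred at 1 site in the Pdk2 promoter, the palindrome CACGTG, which matches once on each strand, at 1 site in that of Pdk3, and not in those of Pdk1 and Pdk4. The letters TATAAA occurred in none of the 4 windows and in 13.6% of all promoters. These matches describe letters in a window and not sites of binding. The other form of that core, GCGTG, was not searched, so a window without ACGTG can still hold the core.

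Among the kinases, Pdk2 and Pdk3 made up most of the PDH kinase mRNA in control mice. Levels were compared between genes as normalized counts per kb of annotated exon (the union of all exons of a gene). Pdk2 (chromosome 11, 95026258 to 95041354), a kinase found in most tissues, had 473 ± 99.6 normalized counts per kb (SD, n = 8). Pdk3 (chromosome X, 93764607 to 93832201), an isoform known in brain and testis, had 295 ± 81.5. Pdk1 (chromosome 2, 71873224 to 71903858), a target of hypoxia-inducible factors, had 74.0 ± 34.9. Pdk4 (chromosome 6, 5483351 to 5496309), which is induced by fasting in muscle and other tissues, had 13.0 ± 26.7. Among the 12387 tested genes with an annotated length, these levels stood at percentiles 80.7, 72.6, 41.5 and 8.32, in the same order.

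As a share of the summed per-kb level of the 4 kinases in each control mouse, Pdk2 took 55.4 ± 6.75%, Pdk3 34.5 ± 8.05%, Pdk1 8.87 ± 4.36% and Pdk4 1.19 ± 2.21% (SD, n = 8). Pdk2 was the highest of the 4 in 8 of 8 control mice. Its share ranged from 45.7% in control mouse 4, where Pdk3 stood at 44.6%, to 68.9% in control mouse 1. The log2 ratio of Pdk2 to Pdk3 within a mouse was 0.71 ± 0.52 and that of Pdk1 to Pdk3 was -2.08 ± 0.97 (SD, n = 8). Each ratio had the same sign in 8 of 8 control mice, with an exact two-sided sign-flip p of 0.00781, the smallest that 8 mice allow, and a p of 0.0113 after Benjamini-Hochberg adjustment over 36 pairs of the 9 genes. The log2 ratio of Pdk1 to Pdk2 was -2.80 ± 0.76 with the same p values. Without division by length, the log2 ratio of Pdk1 to Pdk3 was -0.48 and no longer called (adjusted exact sign-flip p = 0.244). Per kb of exon, Pdk1 was above Pdk4 in 7 of 8 control mice (adjusted exact sign-flip p = 0.0201), the exception being control mouse 3. That exception depended on the length used. In normalized counts, control mouse 3 had 525 for Pdk1 and 273 for Pdk4. With the length of the principal transcript, chosen after seeing the data, Pdk1 was above Pdk4 in 8 of 8 (adjusted exact sign-flip p = 0.0097).

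**Figure D1:**
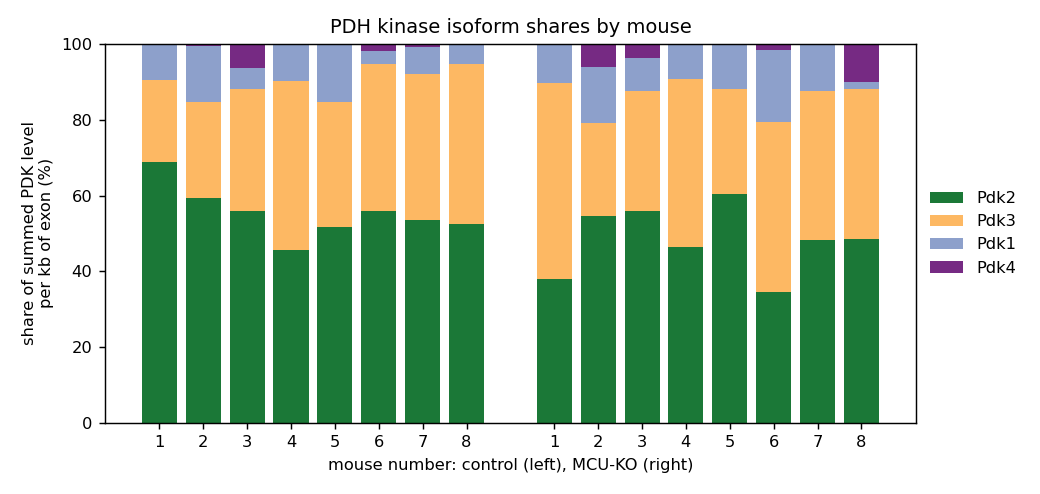
Share of each PDH kinase gene in the summed normalized counts per kb of exon of the 4 kinases (vertical axis, percent), 1 bar per mouse, with control mice 1 to 8 on the left and MCU-KO mice 1 to 8 on the right. Pdk2 is the largest segment in 8 control and 6 MCU-KO mice, and Pdk3 in MCU-KO mice 1 and 6. The share of Pdk4 peaks in MCU-KO mouse 8, at 10.04%, where it stays below those of Pdk2 and Pdk3.

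In MCU-KO mice the shares were 48.3 ± 8.84% for Pdk2, 38.0 ± 9.33% for Pdk3, 10.98 ± 4.98% for Pdk1 and 2.70 ± 3.72% for Pdk4 (SD, n = 8). Pdk2 was the highest in 6 of 8 MCU-KO mice and Pdk3 in the remaining 2. The log2 ratio of Pdk2 to Pdk3 was 0.37 ± 0.62 in MCU-KO mice, lower by 0.35 than in control mice with a 95% interval of the difference from -0.97 to 0.28 (exact permutation p = 0.247, two-sided). The difference for Pdk1 to Pdk2 was 0.46, with an interval from -0.58 to 1.43 (exact permutation p = 0.350). Of 8 ratios compared between the genotypes, the 6 pairs of kinases with Mpc1 to Mpc2 and Dlat to Pdhx, none had a p under 0.05 and each had an adjusted p of 0.831 (exact permutation test). The intervals leave room for a shift of isoform use in either direction.

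Between the genotypes, none of the 9 genes passed an adjusted p of 0.05 (quasi-likelihood test of edgeR, Benjamini-Hochberg adjusted over 12390 genes), which 0.178% of all genes tested did. At an unadjusted p under 0.05 there was 1 gene, Pcx, against 4.41% of all genes tested, and DESeq2 gave the same counts of 0 and 1. The log2 fold change was below 0 for 6 members and above 0 for 3, with a median of -0.10 beside 0.0025 over all genes tested, of which 49.6% were lower. The normalized counts of the 2 groups overlapped for 9 of 9 members, and 0.258% of all genes tested had groups that did not. The 95% interval of the log2 fold change lay within 1 on either side of 0 for 6 members, and within 0.5 for Mpc1, Mpc2 and Dlat. In bulk RNA of this kind, fewer cells of a type and less RNA per cell cannot be told apart.

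**Figure D2:**
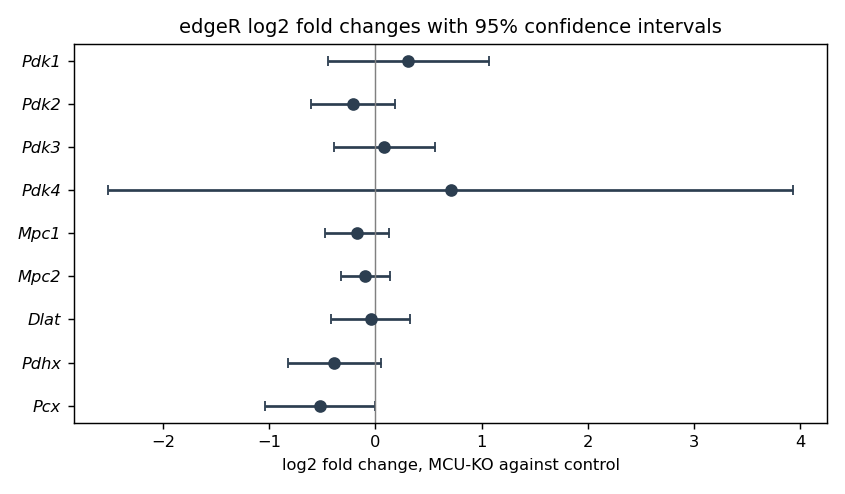
Log2 fold change of each gene, MCU-KO against control (horizontal axis), as the edgeR estimate (point) with its 95% confidence interval (bar). Pcx lies at -0.52 with an interval ending just under 0, every other interval includes 0, and that of Pdk4 runs from -2.52 to 3.93.

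Of the kinases, Pdk2 had 1183 to 2140 normalized counts in control mice (median 1431) and 659 to 1780 in MCU-KO mice (median 1351), with 3 MCU-KO mice below every control mouse. Its log2 fold change was -0.21 ± 0.19 (SE), with an interval from -0.61 to 0.19. Pdk3 had 392 to 992 (median 807) in control mice and 576 to 1180 (median 708) in MCU-KO mice. Its log2 fold change was 0.08 ± 0.23 (SE), with an interval from -0.39 to 0.56, and its direction turned without control mouse 1 (-0.0093) or MCU-KO mouse 7 (-0.019).

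Pdk1 had 232 to 1044 normalized counts in control mice (median 524) and 102.1 to 1111 in MCU-KO mice (median 687). Of the MCU-KO mice, 7 stood above the control median and MCU-KO mouse 8 was the lowest of all 16. The log2 fold change was 0.31 ± 0.37 (SE), with an interval from -0.45 to 1.07, and it was 0.48 ± 0.30 without MCU-KO mouse 8, which was not a call either.

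The spread of Pdk4 between mice exceeded its difference between genotypes. It was at 0 counts in control mice 1, 4 and 8 and in MCU-KO mice 1, 4 and 5, where 3 counts, the amount that a count of 0 still allows, are 0.136 to 0.151 CPM (counts scaled to the library total). In the other control mice it had 0.924, 16.7, 19.5, 55.2 and, in mouse 3, 273 normalized counts. In the other MCU-KO mice it had 3.88, 33.5, 112, 199.7 and, in mouse 8, 251. Both groups thus ranged from no counts to over 200 normalized counts, and the dispersion of Pdk4 stood at percentile 99.0 of the genes tested. The log2 fold change was 0.71 ± 1.56 (SE), with an interval from -2.52 to 3.93, and moved to 2.49 without control mouse 3 and to 0.13 without MCU-KO mouse 8, with no call in either case.

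**Figure D3:**
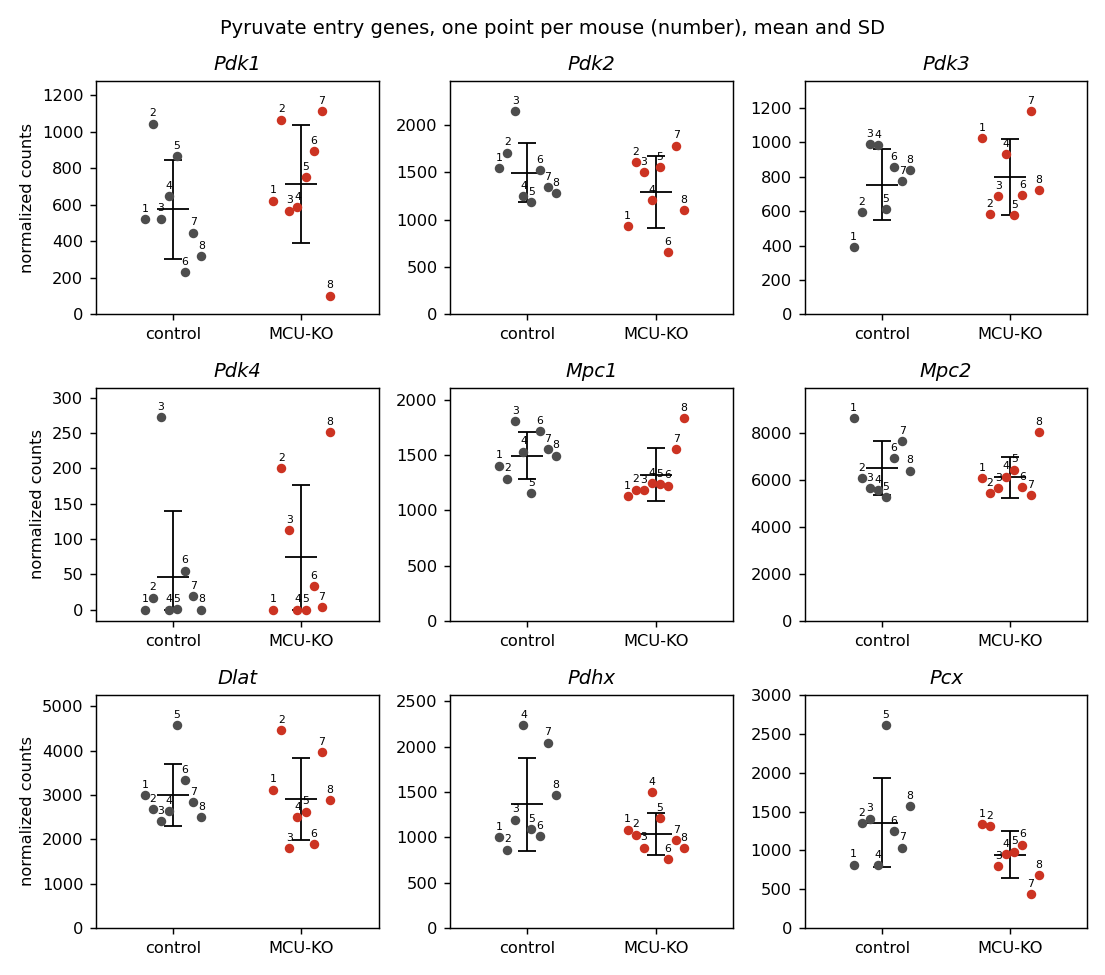
Normalized counts (vertical axes, linear, a different scale in each panel) of the 9 genes in control (grey) and MCU-KO (red) mice, 1 point per mouse with its number, and the mean with its SD (bars, drawn no lower than 0). The groups overlap in each panel, Pdk4 is at 0 in 3 mice of each genotype, and control mouse 5 stands highest for Dlat and Pcx.

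The carrier genes had the highest mean levels per kb of exon of the 9 in control mice, with Mpc1 and Dlat not shown to differ, and the smallest coefficients of variation in either genotype. In normalized counts, which are not divided by length, Mpc1 was below Dlat. Mpc2 (ENSMUSG00000026568, chromosome 1, 165460637 to 165481214) had 6523 ± 1153 normalized counts in control mice and 6110 ± 860 in MCU-KO mice (SD, n = 8 each), a log2 fold change of -0.10 ± 0.11 (SE) with an interval from -0.32 to 0.13. Mpc1, its partner in the carrier, had 1494 ± 212 and 1324 ± 243, a log2 fold change of -0.18 ± 0.15 (SE) with an interval from -0.48 to 0.13. In 6 of the 8 MCU-KO mice Mpc1 was below the control median of 1513, and MCU-KO mouse 8, at 1832, had the highest value of all 16. Without MCU-KO mouse 8 the log2 fold change of Mpc1 was -0.25 ± 0.14 and that of Mpc2 was -0.16 ± 0.11 (SE), and neither was called. The coefficient of variation in control mice was 14.2% for Mpc1 and 17.7% for Mpc2, and their dispersions stood at percentiles 13.5 and 5.04 of the genes tested.

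How far Mpc2 exceeded Mpc1 per kb depended on the length used. With the union of exons, the control levels were 888 ± 157 for Mpc2 and 717 ± 102 for Mpc1, and the log2 ratio of Mpc1 to Mpc2 was -0.30 ± 0.29 (SD, n = 8; below 0 in 7 of 8 mice, adjusted exact sign-flip p = 0.0281). The union length of Mpc2 is 7344 bases, beside 1025 for its principal transcript, while Mpc1 has 2082 and 958. With the principal lengths, an alternative chosen after seeing the data, the levels were 6364 ± 1125 and 1559 ± 221 and the log2 ratio was -2.02, below 0 in 8 of 8 mice. With the longest transcript as length the log2 ratio was -0.057 and not called (adjusted exact sign-flip p = 0.609), and with the union of exons the call was lost in 6 of the 8 sets with 1 control mouse left out, with ratios from -0.37 to -0.23. The order of the 9 genes by mean level was the same with either length. The ratio in MCU-KO mice was -0.39 ± 0.20, different by -0.09 from control mice (interval -0.36 to 0.18, exact permutation p = 0.472).

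**Figure D4:**
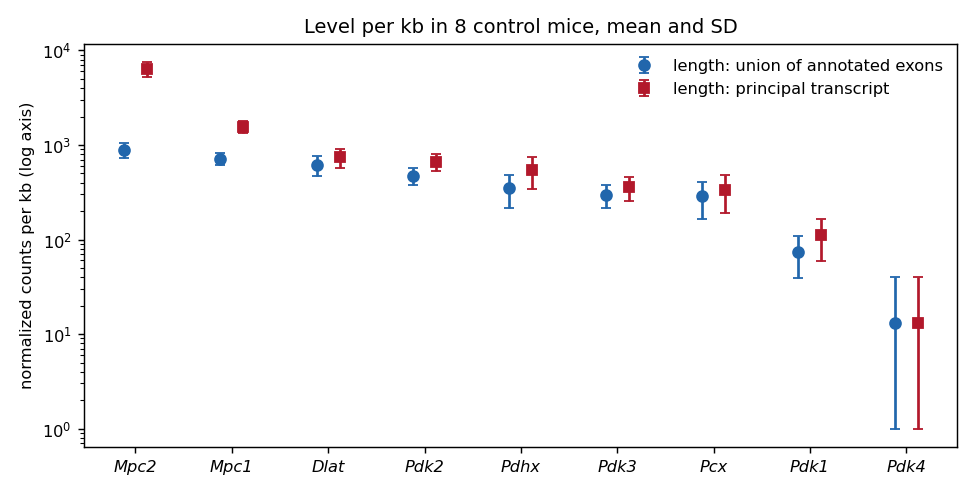
Mean level of each gene in the 8 control mice as normalized counts per kb (vertical axis, log scale), with length taken as the union of annotated exons (blue circles) or as the principal transcript (red squares). Bars are 1 SD, and for Pdk4, whose SD exceeds its mean, the lower bar is drawn to 1. Mpc2 moves from 888 to 6364 with the length used, and Pdk1 and Pdk4 are the lowest with both.

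Dlat and Pdhx encode parts of the core of the PDH complex. Dlat (chromosome 9, 50634633 to 50659780), the dihydrolipoamide acetyltransferase that passes on the acetyl group, had 2416 to 4574 normalized counts in control mice (median 2760) and 1796 to 4454 in MCU-KO mice (median 2752). Its log2 fold change was -0.04 ± 0.18 (SE), with an interval from -0.41 to 0.32, and was 0.07 without control mouse 5, 0.03 without MCU-KO mouse 3 and 0.03 without MCU-KO mouse 6. Pdhx (chromosome 2, 103021075 to 103073513), which anchors the dihydrolipoamide dehydrogenase to that core, had 863 to 2238 normalized counts in control mice (median 1144) and 761 to 1502 in MCU-KO mice (median 997). The 2 highest values, 2238 and 2045, were in control mice 4 and 7. The log2 fold change of Pdhx was -0.39 ± 0.21 (SE), with an interval from -0.83 to 0.05 and an unadjusted edgeR p of 0.0793, and it was -0.25 without control mouse 4. Per kb of exon, Dlat was above Pdhx in 7 of 8 control mice (log2 ratio 0.87 ± 0.66, adjusted exact sign-flip p = 0.0201), while with principal lengths the ratio was 0.50 with an adjusted exact p of 0.0938.

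Pcx (chromosome 19, 4510472 to 4621752), pyruvate carboxylase, had 810 to 2615 normalized counts in control mice (median 1300) and 438 to 1333 in MCU-KO mice (median 966). Control mice 2, 3, 5 and 8 stood above every MCU-KO mouse, and MCU-KO mice 3, 7 and 8 stood below every control mouse. The log2 fold change was -0.52 ± 0.25 (SE), with an interval from -1.04 to -0.00137, an unadjusted edgeR p of 0.0494 and an adjusted p of 1.00. Of the 16 sets with 1 mouse left out, the unadjusted edgeR p stayed under 0.05 in 5 (without control mouse 1, 4 or 7 or MCU-KO mouse 1 or 2) and not in the other 11, and it also missed 0.05 with upper-quartile normalization. The log2 fold change was smallest without control mouse 5, at -0.32 ± 0.23 (SE). The mean log2 CPM of the 10 astrocyte markers had a Pearson r of -0.37 with Pcx over the 8 control mice (Spearman's rho -0.31) and of 0.24 over the 8 MCU-KO mice (rho -0.024). The exact permutation p values of r were 0.368 and 0.574, and both were 0.766 after adjustment over 4 relations, with r at -0.61 and -0.49 when the 2 mice farthest from the median of the markers were left out. The rank correlations had exact permutation p values of 0.462 and 0.977, each 1.00 after adjustment. For Pdk4 the same r was 0.24 in control and -0.019 in MCU-KO mice (exact permutation p of 0.553 and 0.963, adjusted 0.766 and 0.963), with rho of 0.073 and 0 (exact permutation p of 0.887 and 1.00, each adjusted 1.00). Without the 2 mice, r of Pdk4 was 0.098 and 0.28.

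In order of mean level per kb of exon in control mice, the 9 genes stood as Mpc2, Mpc1, Dlat, Pdk2, Pdhx, Pdk3, Pcx, Pdk1 and Pdk4. The exact sign-flip test with adjustment over 36 pairs passed 0.05 for 30 of them, and 25 pairs had the same sign in 8 of 8 control mice. How often pairs of other genes differ in this way was not tested. Without division by length, Pdk2 to Mpc1 (adjusted exact sign-flip p = 0.916) and Mpc1 to Pdhx (0.281) lost their calls. So did Mpc1 to Pcx and Pdk2 to Pcx (0.409 each), while Pdk2 to Dlat and Pdk3 to Pdhx gained calls (0.0104 each). With union lengths, Pdk2 to Pcx also missed 0.05 without control mouse 1 (0.0563). Of the neighbours in this order, Mpc1 and Dlat (adjusted exact p = 0.179), Dlat and Pdk2 (0.0635), Pdk2 and Pdhx (0.0879), Pdhx and Pdk3 (0.248) and Pdk3 and Pcx (0.695) were not shown to differ beyond the spread between mice. With principal lengths, Mpc1 and Dlat (adjusted exact p = 0.0097) and Pdhx and Pdk3 (0.0182) passed as well. Pdk1 stood apart from Pcx above it in 8 of 8 control mice, with a log2 ratio to Pcx of -1.99 ± 0.81 (adjusted exact sign-flip p = 0.0113). The 3 genes whose log2 CPM were most like Pdk2 over the 16 mice, after subtracting genotype means, were Tmem79 (Pearson r = 0.81), Tatdn1 (0.81) and 1110046J04Rik (0.80). They are the highest of all genes tested and are given with no p, and Tmem79 had only 10.8 normalized counts in control mice.

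The further genes of the pathway were counted from 3 lists: other genes of PDH activity, genes of pyruvate supply and use, and regulators of the kinases. Of 34 genes listed, 29 were tested and none had an adjusted p under 0.05 (edgeR) or an unadjusted p under 0.05. Of all genes tested, 0.178% passed the first and 4.41% the second. Among the 29, 16 were lower and 13 higher, beside 49.6% lower of all genes tested. Their median log2 fold change was -0.07, beside 0.0025 over all genes tested. Pdha2, Pklr and Pck1 had 0 counts in every mouse. The smallest p was that of Hif1a, a subunit of hypoxia-inducible factor, with 611 ± 195 normalized counts in control and 897 ± 461 in MCU-KO mice (SD, n = 8 each), a log2 fold change of 0.55 ± 0.30 (SE). Next came Esrra, a nuclear receptor of mitochondrial gene programmes, at -0.32 ± 0.22, Pck2, the mitochondrial phosphoenolpyruvate carboxykinase, at -0.31 ± 0.23, Me2, the mitochondrial NAD-linked malic enzyme, at -0.47 ± 0.38, and the lactate dehydrogenase gene Ldhb at -0.10 ± 0.08 (log2 fold change ± SE). The PDH phosphatase gene Pdp1 had 1042 ± 647 and 840 ± 336 normalized counts, a log2 fold change of -0.31 ± 0.35 (SE) with an interval from -1.03 to 0.41.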

How the data were processed

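The authors used Trim Galore, STAR and HTSeq with the mm10 genome, per the submitters' processing notes, and deposited raw whole-number counts per gene. Tool versions, the annotation release and the strand setting are not given in the sources used here. The same-numbered control and MCU-KO mice share only a number. Genes passing filterByExpr were fitted with edgeR 4.0.16 in R 4.3.3 (TMM, glmQLFit, glmQLFTest, Benjamini-Hochberg adjustment). This was the main test, and DESeq2 1.42.0, the study's tool, was an alternative. Normalized counts used DESeq2 size factors. Lengths and positions came from GENCODE M21 (GRCm38, the build of mm10). Ratios used a pseudocount of 1 and exact tests over mice, with Python 3.11.15. Scripts were tested on simulated data. Genes named were the 9 members, Mcu, the 5 pathway genes with the smallest p and the 3 genes most like Pdk2. Pdp1 was named beyond this rule. The members and lists were chosen with earlier results of these data known. The mice are separate animals by their labels. Limits from 0 counts cover counting error only.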

Additional observations from a re-analysis of the deposited data

Results flagged for a closer look

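Of 34 groups of 8 values checked (9 genes and 8 ratios in each genotype), 6 held a mouse whose distance to its nearest neighbour was large against the range of its group. A rate of about 1 in 20 would give 1.7. The groups share mice and genes, and counts such as those of Pdk4 are skewed, so whether 6 differs from that rate was not tested. Among normalized counts, control mouse 3 stood apart for Pdk4 at 273 (the next control mouse had 55.2), control mouse 5 for Dlat at 4574 (next 3326) and for Pcx at 2615 (next 1566), and MCU-KO mouse 8 for Mpc2 at 8032 (next 6442). Among ratios within a mouse, MCU-KO mouse 8 had the lowest log2 ratio of Pdk1 to Pdk3 at -4.41 (next -2.32), and MCU-KO mouse 7 had the highest log2 ratio of Mpc1 to Mpc2 at 0.037 (next -0.31).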

How the results depend on the processing

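None of the 9 genes had an adjusted p under 0.05 in the main edgeR fit, with DESeq2, with other normalizations or filters, with the mouse number as a replicate block, or without any 1 mouse. The smallest adjusted p of any of them was 0.365, without the filter on low counts. Over all genes tested, 22 were called in the main fit, 90 with DESeq2 and 14 with the replicate block. Mouse numbers did not pair the samples: the deviations of same-numbered mice had correlations from -0.061 to 0.031. With the block the unadjusted p of Pcx was 0.069. Pdk4 was not tested with at least 10 counts required in every mouse. Leaving out 1 mouse gave log2 fold changes from -0.019 to 0.15 for Pdk3 and from -0.16 to 0.069 for Dlat, and ratio differences between genotypes from -0.086 to 0.46 for Pdk1 to Pdk3 and from -1.34 to 0.37 for Pdk1 to Pdk4, the last turning without MCU-KO mouse 8. Mpc1 to Mpc2 in control mice ranged from -0.37 to -0.23, with adjusted exact p values from 0.0544 to 0.0563 in 6 of these 8 sets, and was -0.057 with the longest transcript as length (adjusted exact p = 0.609). Dlat to Pdhx was 0.50 and not called with longest or principal transcripts. Without division by length Pdk1 to Pdk3 was -0.48 and lost its call (adjusted exact p = 0.244), and Pdk3 to Pcx turned to -0.80 and Mpc1 to Dlat to -0.99, while Pdk3 to Pcx ranged from -0.066 to 0.27 when 1 mouse was left out. The spread between mice limits the fold changes that could be called, most of all for Pdk4.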

Other observations

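MCU-KO mouse 8, the library with the fewest counts, had the lowest Pdk1 of the 16 mice (102 normalized counts), the highest Mpc1 (1832) and, after control mouse 1, the highest Mpc2 (8032). Over the 16 mice, after subtracting genotype means, none of 36 pairs of the 9 genes had a correlation that passed adjustment (permutation within genotype, relations chosen after seeing the data). The largest was Pdk1 with Mpc2 (Pearson r = -0.66, permutation p = 0.00959, adjusted 0.251; rank correlation -0.71, permutation p = 0.00458, adjusted 0.165), and r was -0.48 without control mouse 6 and MCU-KO mouse 8. For Pdk1 with Mpc1, r was -0.65 (permutation p = 0.0163, adjusted 0.251) and -0.23 without the same 2 mice, so that this relation rests on them. For Mpc1 with Pcx, r was -0.59 (permutation p = 0.0209, adjusted 0.251; rank correlation -0.50, permutation p = 0.0629). That r did not weaken without control mouse 3 and MCU-KO mouse 8, where it was -0.72.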
